A study of Mus musculus with 18 samples.

Results

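The α2-adrenergic receptor agonist UK14,304 was compared with its DMSO vehicle in cultured intestinal epithelium. The comparison takes the 5 libraries labelled UK1uM_m1 to UK1uM_m5 and the 4 libraries labelled Ctrl_DMSO_m1 to Ctrl_DMSO_m4, which are 9 of the 18 libraries of the series, and every gene of the deposited count table. The other 9 libraries are 5 treated with norepinephrine, the natural transmitter of sympathetic nerves, and 4 with its HCl vehicle. Small intestinal organoids, which are hollow epithelial cultures that grow from isolated crypts and keep stem, Paneth, goblet, enteroendocrine, tuft and absorptive cells together, were derived from female wild-type C57BL/6 mice. After several passages they were kept for 4 days with 1 μM UK14,304, 1 μM norepinephrine or a vehicle, and their RNA was sequenced. All groups share the wild-type genotype, the culture medium and an isolated epithelium as the starting tissue. Replicate m5 has a UK14,304 library and no DMSO library here. The labels do not say what the replicate number stands for. It enters the main model as a block. The p-values of that model therefore measure the spread between these samples that remains once differences between the numbers are removed.

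UK14,304, also known as brimonidine, activates α2-adrenergic receptors. These receptors couple to inhibitory G proteins of the Gi class, which restrain adenylyl cyclase and so lower cyclic AMP, and which can also feed into the ERK kinase cascade. In the gut, sympathetic nerves release norepinephrine near the crypts, and Adra2a, the gene of the α2A receptor, is the family member best known in the epithelium. Intestinal epithelium burns much of its glucose by glycolysis, and several glycolytic genes, with the classical hypoxia genes, are targets of hypoxia-inducible factors. ATF4 is a separate transcription factor, made when amino acids run short or the integrated stress response is on, that raises genes for amino acid synthesis, one-carbon metabolism and stress.

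Between 22896526 and 27850373 reads were counted on genes in the UK14,304 libraries and between 24274158 and 26268471 in the DMSO libraries. Summed markers of epithelium amounted to 8925 to 9539 CPM (a gene's counts scaled to the library's adjusted total) with UK14,304 and 9119 to 10016 CPM with DMSO. None of these 10 genes passed the test by edgeR (0 with an unadjusted p under 0.05, and 0 with either other tool). Immune cell markers summed to between 11.3 and 14.2 CPM, of which Cd14 made up a mean of 6.12 CPM with UK14,304 and 6.06 CPM with DMSO. Fibroblast, endothelial and neural markers summed to at most 3.85, 2.52 and 3.08 CPM. Col1a2, Dcn and Lum, which define fibroblasts, Adgre1, which defines macrophages, and Cldn5, which marks endothelium, had no counts in any of the 9 libraries. The share of reads on a ribosomal RNA gene, CT010467.1, ran from 0.340% to 1.97% with UK14,304 and from 0.351% to 3.06% with DMSO, and was lower with UK14,304 in 4 of 4 same-numbered pairs. Levels also leaned less towards GC-rich genes with UK14,304 in 4 of 4 pairs. For both measures an exact permutation of signs over pairs gave a two-sided p of 0.125, the smallest that 4 pairs allow. Beside the groups of genes below whose count it changed, the count is therefore also given with the libraries' split at a ribosomal RNA share of 1% in the model. Of the 9 libraries, DMSO m1, m2 and m3 (2.41%, 2.61% and 3.06%) and UK14,304 m1 (1.97%) lay above 1%. The split thus follows the treatment in part, and the 2 cannot be fully told apart where a count changed with the split. No count was listed for any of the 37 genes of the mitochondrial genome.

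In the main model, which holds all 18 libraries, many more genes were called lower than higher with UK14,304, by modest amounts. Of 15247 genes tested, 186 passed an adjusted p of 0.05 with the replicate number as a block (edgeR's quasi-likelihood test, Benjamini-Hochberg adjustment). That is a background of 1.22%, with 159 genes lower (1.04%) and 27 higher (0.177%). The called genes moved the same way in all 4 same-numbered pairs, as did 15.5% of all tested genes downward and 14% upward. Their median change was -0.39 on the log2 scale for the genes that fell and 0.34 for those that rose, 133 of the 186 changed by less than 0.5, and 11 by 1 or more. Over all genes 7421 fitted changes lay above 0 and 7826 below. By edgeR 2256 of the 15247 had an unadjusted p under 0.05, which is the background for such counts in the lists. The libraries of the groups did not overlap for 58 of the called genes, 42 lower and 16 higher, against 3.51% of all genes (1.78% lower and 1.72% higher). Without the replicate number in the model, 6 genes passed, or 0.0394%, with 4 higher (0.0262%) and 2 lower (0.0131%). With the trend on GC content removed from each library, 217 genes were higher and 409 lower. With the ribosomal RNA split 78 genes passed (0.512%), 12 higher (0.0787%) and 66 lower (0.433%), of which 77 were among the 186. The total was 68 without DMSO m2, 95 without DMSO m3, 119 without UK14,304 m2 and 91 without UK14,304 m3. In bulk RNA, fewer cells of a type and less RNA per cell cannot be told apart.

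**Figure D1:**
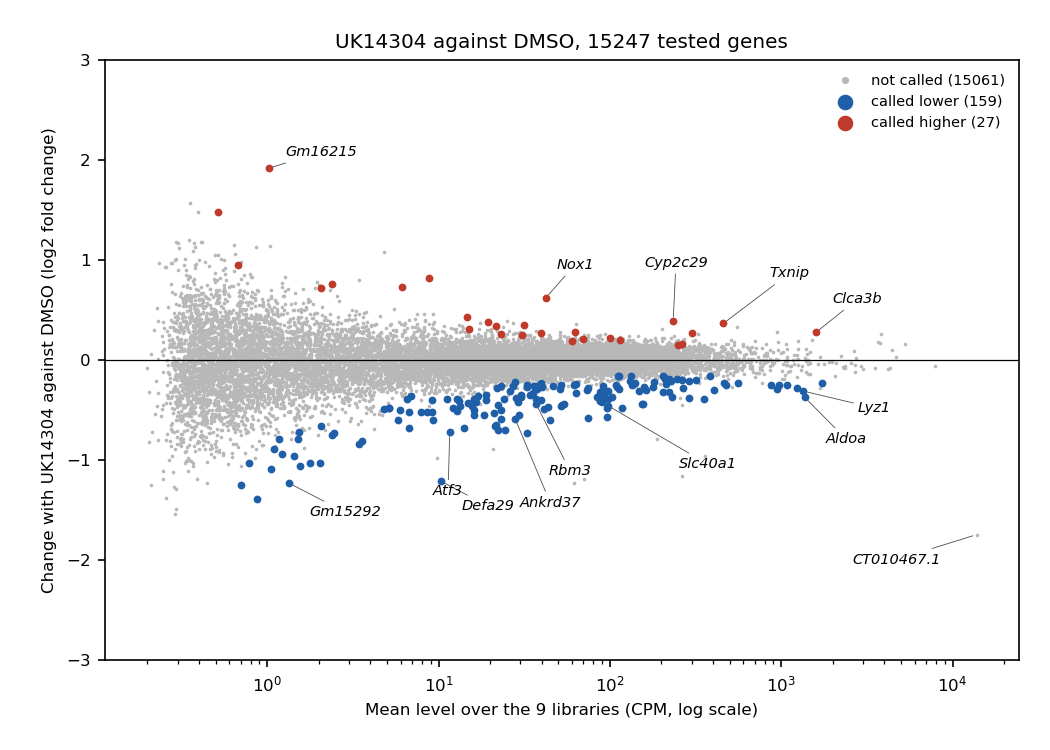
Fitted change with UK14,304 against DMSO (y axis, log2 fold change) against the mean level over the 9 libraries (x axis, CPM on a log scale) for the 15247 tested genes, one point each. Blue points are the 159 genes called lower and red points the 27 called higher, and the smallest changes that were called lie among abundant genes (0.150 on the log2 scale above 100 CPM, 0.951 below 1 CPM).

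Protein-coding genes gave 166 of the calls, 20 higher and 146 lower, from 12729 tested (1.30%, near the 1.22% of all genes). Long noncoding and unverified transcripts gave 6 rises and 11 falls from 1678 (1.01%), and pseudogenes 1 of each from 775 (0.258%). Of 47 gene lists that cover signalling, metabolism, stress, growth and cell types, 26 held at least 1 called gene. The lists were written with earlier results of these data known, so their counts are descriptions and no independent test. Calls were only lower in 17 of these lists, only higher in 4 and mixed in 5. Of the 1091 listed genes that were tested 78 were called (7.15%, against 1.22% of all genes), 70 lower and 8 higher.

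**Figure D2:**
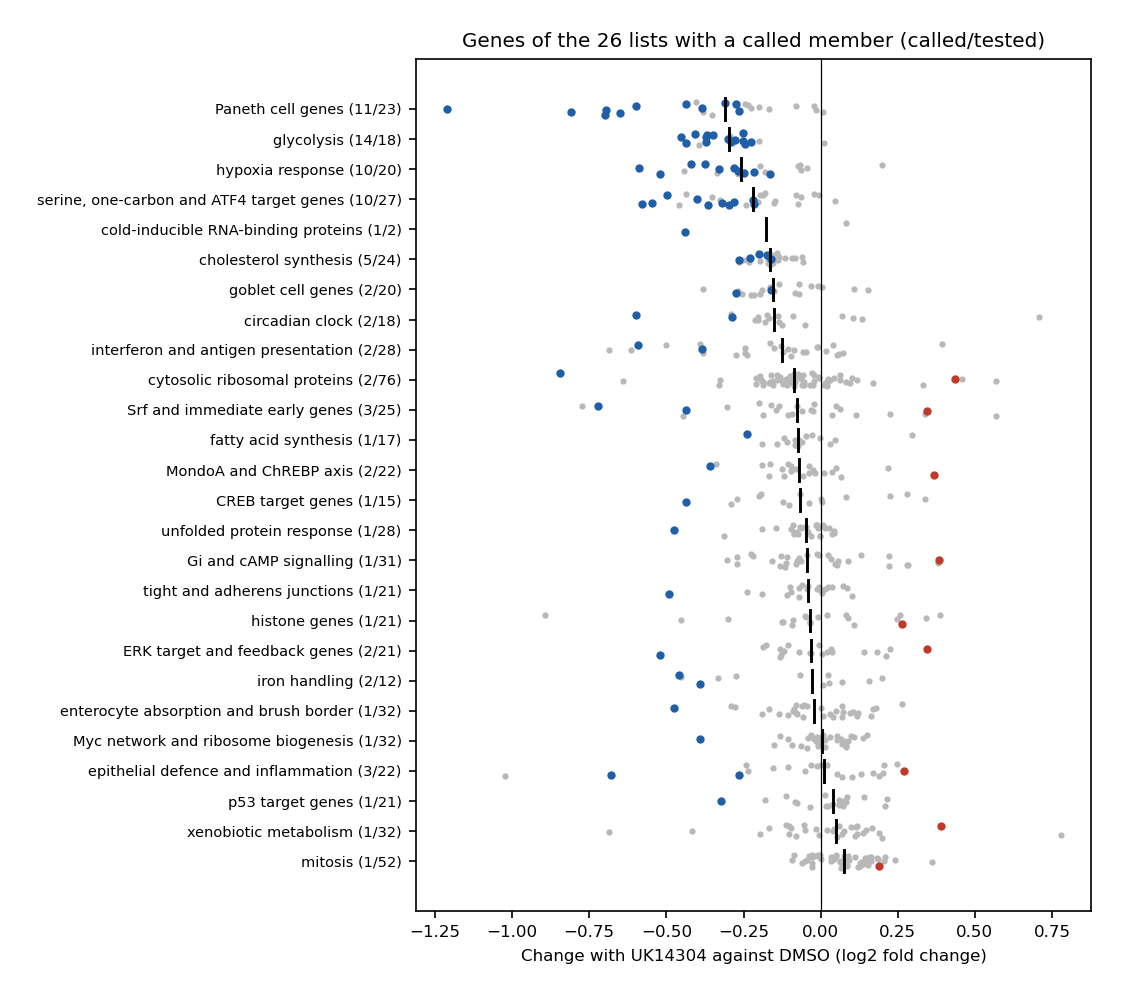
Fitted change with UK14,304 against DMSO (x axis, log2 fold change) of each tested gene in the 26 lists with a called member, with the called and tested numbers in brackets. Blue and red points were called lower and higher, grey points were not called, and black bars mark each list's median, which is lowest for the Paneth cell genes at -0.31 and highest for mitosis at 0.08.

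The transcript of the receptor itself was not called. Adra2a measured 29.5, 25.5, 27.2 and 31.02 CPM in the DMSO libraries m1 to m4 and 27.6, 29.8, 29.5, 25.6 and 24.7 CPM in the UK14,304 libraries m1 to m5. The groups overlapped throughout, and the fitted change was -0.01 ± 0.06 (SE) on the log2 scale with an adjusted p of 0.949 by edgeR. Downstream of the receptor, 1 of 31 genes for G proteins, adenylyl cyclases, cyclic AMP-dependent kinase, phosphodiesterases and their regulators was called. This was Adcy1, which encodes a calcium-stimulated adenylyl cyclase. It measured 19.2, 13.3, 16.3 and 17.5 CPM with DMSO and 23.3, 17.3, 24.04, 20.9 and 23.04 CPM with UK14,304. Each UK14,304 library lay above the DMSO library of its number, although the groups overlapped, and the change was 0.38 ± 0.07 (SE, adjusted p = 0.00657, edgeR). The median of the whole list was -0.04.

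Immediate early genes, which respond to receptor signals within minutes in most cells, moved in both directions. Of 25 such genes 3 were called. Atf3, a stress-induced repressor of the ATF family, measured 11.9, 20.997, 13.9 and 13.02 CPM with DMSO and 8.63, 11.4, 6.898, 8.65 and 9.16 CPM with UK14,304, so that the groups did not overlap. Its change of -0.72 ± 0.09 (SE) had an adjusted p of 0.000564 by edgeR. Junb, a subunit of AP-1, changed by -0.44 ± 0.08 (SE, adjusted p = 0.00793, edgeR), and it is also the 1 called gene of 15 CREB targets. Egr1, an ERK-induced zinc finger factor, went the other way. It measured 17.6, 23.8, 17.4 and 16.7 CPM with DMSO and 24.6, 27.6, 20.5, 22.9 and 23.9 CPM with UK14,304. The DMSO library m2 lay within the range of the treated ones, and each pair rose, with a fitted change of 0.34 ± 0.06 (SE, adjusted p = 0.00658, edgeR). Fos, its close companion in the serum response, had a fitted change of 0.23 with an adjusted p of 0.16 by edgeR. Ier3, another ERK-responsive gene, fell, with libraries at 8.39, 13.3, 9.06 and 9.86 CPM under DMSO and 8.04, 8.11, 5.25, 6.71 and 8.299 CPM under UK14,304. Its change was -0.52 ± 0.09 (SE, adjusted p = 0.00671, edgeR). Egr1 and Ier3 were thus the called genes among 21 ERK targets and feedback regulators, in opposite directions, around a list median of -0.03. With the ribosomal RNA split Junb and Ier3 lost their calls, which left 2 immediate early, 1 ERK and 0 CREB calls. Without DMSO m2 there were 2, 1 and 0 as well, and without DMSO m3 there were 2, 2 and 0.

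Glycolysis gave more calls than any other of these lists, which were written with earlier results of these data known. Of 18 genes of glucose uptake, glycolysis and lactate export 14 were called lower and none higher, with a list median of -0.30 against -0.004 for all genes, and 17 of the 18 were lower in 4 of 4 pairs. The exporter of lactate, Slc16a3, measured 188, 205, 148 and 181 CPM with DMSO and 162, 148, 88.6, 137 and 132 CPM with UK14,304. DMSO library m3 lay within the range of the treated libraries, and the fitted change was -0.44 ± 0.08 (SE, adjusted p = 0.0126, edgeR). Hk1, a hexokinase that traps glucose in the cell, measured 55.1, 80.02, 51.4 and 60.2 CPM and 44.98, 60.3, 29.7, 45.4 and 46.2 CPM in the same order. It had the largest fitted change of the list, -0.45 ± 0.07 (SE, adjusted p = 0.0031, edgeR). Aldoa, the main aldolase, measured 1563, 1872, 1254 and 1626 CPM with DMSO and 1337, 1403, 905, 1227 and 1152 CPM with UK14,304. The fitted level fell by 22.8% (change -0.37 ± 0.06, SE, adjusted p = 0.0031, edgeR). The remaining called members were the glucose carrier Slc2a1 (-0.37), the hexokinase Hk2 (-0.25), the isomerases Gpi1 (-0.28) and Tpi1 (-0.25), the phosphofructokinases Pfkl (-0.30) and Pfkp (-0.25), their activator-producing enzyme Pfkfb3 (-0.37), the second aldolase Aldoc (-0.41), Pgk1 (-0.35), which makes ATP, pyruvate kinase Pkm (-0.29) and lactate dehydrogenase Ldha (-0.23). Gapdh, Eno1 and Pgam1 had fitted changes of -0.40, -0.30 and -0.20 and adjusted p-values of 0.076, 0.0634 and 0.127 by edgeR. Pfkm, the muscle phosphofructokinase, stood at 0.01. Reads that also match processed pseudogenes were not counted by the authors, so that the levels of Gapdh and Pgk1 here cover only part of their transcripts. With the ribosomal RNA split in the model 5 of the 14 passed, and without DMSO m2, DMSO m3 or UK14,304 m3 the count was 3, 8 and 7. It was 0 both without the replicate number in edgeR and with the number as a random effect in limma voom, while the list median stayed between -0.35 and -0.24 in every setting run.

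Classical hypoxia genes fell with them. Of 20 tested, 10 were called lower and none higher, with a median of -0.26. Ankrd37, a short ankyrin-repeat protein that is a sensitive hypoxia target, measured 31.7, 43.01, 26.995 and 35.3 CPM with DMSO and 23.7, 30.1, 13.5, 25.2 and 22.9 CPM with UK14,304. Only the lowest DMSO library, m3, fell inside the range of the treated libraries, and the change was -0.59 ± 0.08 (SE, adjusted p = 0.000892, edgeR). Egln3, an oxygen sensor that marks hypoxia-inducible factor for destruction and is itself induced by it, measured 296, 407, 277 and 339 CPM and 263, 312, 175, 285 and 249 CPM. Its change was -0.38 ± 0.06 (SE, adjusted p = 0.00424, edgeR). Vegfa, the angiogenic growth factor, fell by 0.27 and the pH-regulating carbonic anhydrase Car9 by 0.21 on the log2 scale. The collagen prolyl hydroxylases P4ha1 and P4ha2 fell by 0.33 and 0.42, Ndrg1 by 0.25, the mitochondrial Higd1a by 0.28 and the oxygen sensor Egln1 by 0.16. Adm, which encodes the peptide adrenomedullin, fell by 0.52, with an adjusted p just inside the threshold (0.0495, edgeR), and measured 6.96, 16.01, 5.67 and 9.29 CPM with DMSO and 6.58, 10.8, 3.02, 6.37 and 6.31 CPM with UK14,304. The transcript of the factor itself, Hif1a, had a fitted change of 0.20 (adjusted p = 0.179, edgeR). With the ribosomal RNA split 4 of the 10 passed. Without DMSO m2, DMSO m3, DMSO m4 or UK14,304 m3 there were 2, 4, 6 and 5 calls.

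The sequence just before the start of these genes was searched for the core letters that hypoxia-inducible factors recognise, ACGTG or GCGTG, on both strands of the 250 bases upstream. RefSeq gives such a sequence for 10722 of the tested genes, and 56.1% of them hold the letters, so that a match by itself is common. Among the called genes the share was 9 of 14 for glycolysis (64.3%) and 8 of the 9 hypoxia genes with a sequence (88.9%). Among all tested members with a sequence, called or not, it was 13 of 18 for glycolysis (72.2%) and 13 of 16 for hypoxia (81.2%). The sequences of 4 called members are shown as examples that hold matches, and they were not picked by the size of their fall. They come from GRCm38.p6 and run in the direction of transcription, with the matched letters of either strand in capitals. ACGTG is also part of CACGTG, the E-box letters, and a CACGTG counts once on each strand. Ldha lies on the plus strand at chr7:46845554-46845803 and holds 5 matches, Slc16a3 on the plus strand at chr11:120948817-120949066 holds 2, Ankrd37 on the minus strand at chr8:45999851-46000100 holds 4 and Adm on the plus strand at chr7:110627407-110627656 holds 2.
Ldha: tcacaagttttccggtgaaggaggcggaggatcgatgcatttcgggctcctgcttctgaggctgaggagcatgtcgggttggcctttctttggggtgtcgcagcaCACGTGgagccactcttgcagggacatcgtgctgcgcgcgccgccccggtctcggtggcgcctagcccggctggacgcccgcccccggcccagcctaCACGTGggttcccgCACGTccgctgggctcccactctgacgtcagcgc
Slc16a3: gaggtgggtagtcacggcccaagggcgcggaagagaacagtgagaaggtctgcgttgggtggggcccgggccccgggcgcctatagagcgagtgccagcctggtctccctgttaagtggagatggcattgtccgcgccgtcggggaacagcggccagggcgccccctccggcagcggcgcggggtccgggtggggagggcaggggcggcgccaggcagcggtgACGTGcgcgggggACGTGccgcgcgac
Ankrd37: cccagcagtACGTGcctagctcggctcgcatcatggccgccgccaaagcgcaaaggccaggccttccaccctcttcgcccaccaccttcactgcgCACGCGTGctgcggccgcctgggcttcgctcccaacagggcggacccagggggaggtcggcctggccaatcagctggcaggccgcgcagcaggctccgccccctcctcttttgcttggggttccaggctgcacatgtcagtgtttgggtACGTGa
Adm: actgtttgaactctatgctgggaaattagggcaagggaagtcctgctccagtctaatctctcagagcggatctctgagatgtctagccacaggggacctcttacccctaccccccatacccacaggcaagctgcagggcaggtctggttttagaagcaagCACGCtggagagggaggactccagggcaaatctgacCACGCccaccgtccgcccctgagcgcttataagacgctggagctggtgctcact
In Ankrd37 the last match starts 6 bases before the transcription start, and in Slc16a3 both lie within the last 27 bases. Hk1, Gpi1, Aldoa, Tpi1, Pkm and Vegfa fell without these letters in the window.

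Genes of amino acid synthesis, one-carbon metabolism and the ATF4 response formed the third lowered metabolic group, with 10 of 27 called lower, none higher, and a median of -0.22. Atf4 itself measured 296, 332, 265 and 295 CPM with DMSO and 259, 255, 224, 232 and 253 CPM with UK14,304. The groups did not overlap, and the change was -0.28 ± 0.05 (SE, adjusted p = 0.00451, edgeR). The largest fitted fall belonged to Stc2, a secreted stanniocalcin induced by ATF4, at 76.5, 121, 72.2 and 92.03 CPM and 61.4, 82.4, 34.2, 68.2 and 67.4 CPM. Its change was -0.58 ± 0.09 (SE, adjusted p = 0.0047, edgeR). Asns, which makes asparagine, measured 191, 220.5, 166 and 207 CPM with DMSO and 169, 197, 136, 173 and 167 CPM with UK14,304, a smaller change of -0.22 ± 0.04 (SE, adjusted p = 0.00537, edgeR) that held in each pair although the groups overlapped. Psat1, the aminotransferase of serine synthesis, fell by 0.21. The mitochondrial folate enzymes Mthfd2 and Aldh1l2 fell by 0.30 and 0.55, the alanine aminotransferase Gpt2 by 0.36, the pseudokinase Trib3 by 0.50, Atf5 by 0.32 and the lipoprotein receptor Vldlr by 0.40. Phgdh and Psph, the first and last enzymes of serine synthesis, stood at -0.19 and -0.24 with adjusted p-values of 0.243 and 0.182 by edgeR. Ddit3, which encodes the stress factor CHOP and is often induced through ATF4, was the 1 called gene of 28 in the unfolded protein response, and fell by 0.48 (adjusted p = 0.00658, edgeR) with libraries at 12.1, 17.3, 13.3 and 15.2 CPM under DMSO and 10.3, 12.9, 8.302, 9.22 and 11.2 CPM under UK14,304. The ribosomal RNA split left 5 of the 10 ATF4-related calls, and leaving out DMSO m2 or DMSO m3 left 5 and 4.

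The composite element that ATF4 binds with its C/EBP partners is often written TGATGNAA. On both strands of the same window it occurred in 1.94% of the tested genes and in 6 of 25 listed genes with a sequence (24%), although in 1 of the 9 called ones. That one is Asns, on the minus strand at chr6:7693210-7693459 of GRCm38.p6, shown because its element starts 23 bases before the transcription start. Capitals mark the match.
Asns: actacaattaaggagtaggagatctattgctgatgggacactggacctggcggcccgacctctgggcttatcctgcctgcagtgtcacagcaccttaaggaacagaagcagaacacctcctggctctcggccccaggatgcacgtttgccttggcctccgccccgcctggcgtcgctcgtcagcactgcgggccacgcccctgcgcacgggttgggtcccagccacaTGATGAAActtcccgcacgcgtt

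**Figure D3:**
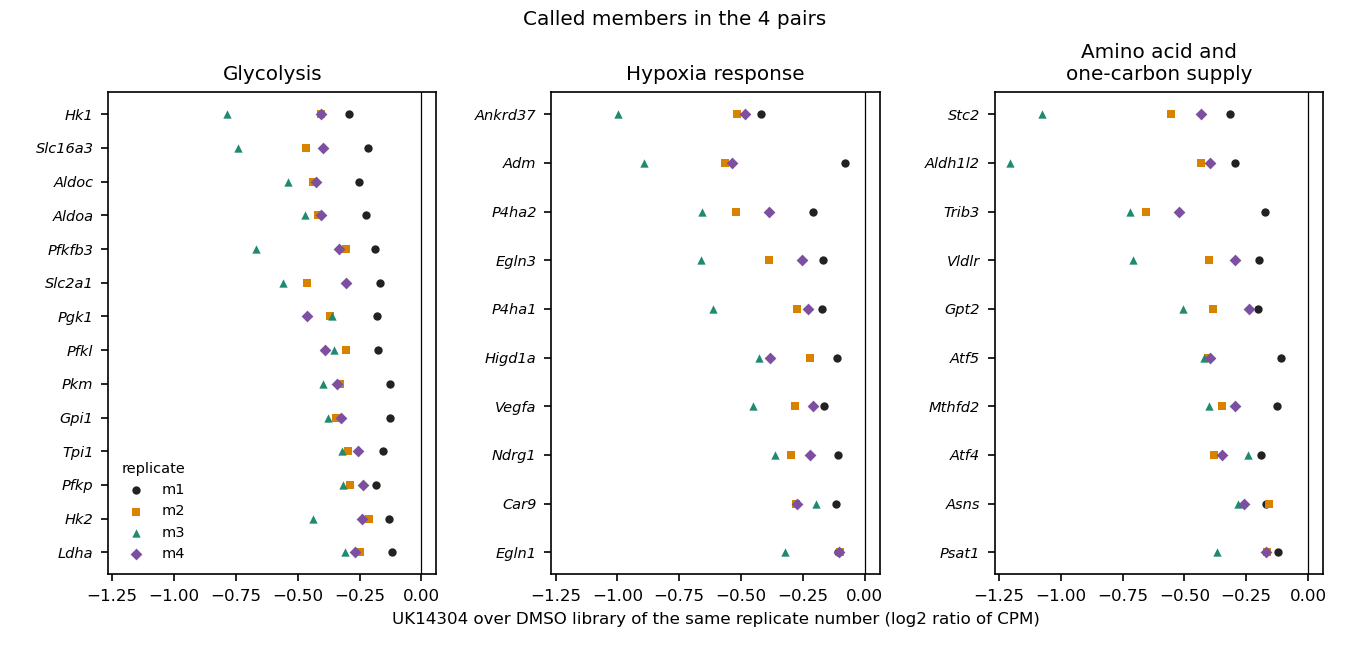
Log2 ratio of CPM of the UK14,304 library over the DMSO library of the same replicate number (x axis) for the called members of 3 lists (y axis, largest fitted fall on top), with a symbol for each of replicates m1 to m4. Each ratio lies below 0, and pair m3 lies farthest from 0 for 30 of the 34 genes and pair m1 nearest for 32.

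The size of the fall differed between pairs. Among these 34 called genes of the 3 metabolic lists the ratio was lowest in pair m3 for 30 and closest to 0 in pair m1 for 32. Over all 159 genes called lower, the corresponding numbers were 90 and 108. As for glycolysis, none of the hypoxia, ATF4 and cholesterol calls passed without the replicate number in edgeR or with it as a random effect in limma voom. Slc40a1 varied far more between replicate numbers than between treatments. This gene, which encodes ferroportin, the exporter that carries iron from the enterocyte to the blood, measured 83.4, 264, 20.7 and 106 CPM with DMSO and 57.7, 206, 14.002, 81.3 and 44.6 CPM with UK14,304. Each number kept its rank in both groups while each pair fell, and the change was -0.46 ± 0.06 (SE, adjusted p = 0.000564, edgeR), against 0.834 without the replicate number. Slc11a2, the apical iron importer DMT1, behaved likewise at 309, 834, 139 and 388 CPM and 256, 628, 101, 286 and 232 CPM. Its change was -0.39 ± 0.08 (SE, adjusted p = 0.0343, edgeR). These were the 2 called genes of 12 in iron handling. Slc11a2 lost its call with the ribosomal RNA split and without any 1 library other than UK14,304 m1, which left 1 call. The duodenal iron reductase Cybrd1 stood at -0.45 with an adjusted p of 0.15 by edgeR, and the transferrin receptor Tfrc at 0.20 (0.338).

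Cholesterol synthesis shifted by less, yet in 1 direction. All 24 genes of the list had a fitted change below 0, from -0.26 to -0.06, with a median of -0.16, and 5 of them were called lower. Fdps, which makes farnesyl diphosphate, measured 38.1, 45.2, 34.7 and 42.2 CPM with DMSO and 35.2, 35.3, 27.9, 35.1 and 32.5 CPM with UK14,304 and changed by -0.26 ± 0.05 (SE, adjusted p = 0.0104, edgeR). Fdft1, Sqle and Lss, the next 3 enzymes on the way to sterols, fell by 0.17, 0.16 and 0.20, and the sterol sensor Insig1 by 0.23. Beside the 5 calls, 22 of the 24 had an unadjusted p under 0.05. None of the 5 passed with the ribosomal RNA split in the model, although the list median was -0.16 there too. Removing the GC trend raised the count to 18, and leaving out single libraries gave 0 (without DMSO m2 or UK14,304 m3), 1 (without DMSO m3, DMSO m4 or UK14,304 m2), 2 (without DMSO m1) and 9 (without UK14,304 m4). Acss2, which turns acetate into acetyl-CoA, was the 1 called gene of 17 in fatty acid synthesis, at 220.4, 258, 220.5 and 239.6 CPM with DMSO and 203, 214, 183, 195 and 191 CPM with UK14,304. The groups did not overlap and the change was -0.24 ± 0.04 (SE, adjusted p = 0.00516, edgeR).

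The clearest single rise was that of Txnip (chr3:96557957-96561883, plus strand), which encodes a protein that binds thioredoxin and restrains glucose uptake, and which the glucose sensor MondoA induces. It measured 395, 401, 389 and 407 CPM with DMSO and 495, 532, 484, 537 and 505 CPM with UK14,304. All treated libraries lay above all DMSO libraries, and the change of 0.37 ± 0.03 (SE), or 28.9%, had the smallest adjusted p of the comparison (1.57e-05, edgeR). It passed in each of the 21 alternative fits, among them the model without the replicate number (0.000328) and the one with the ribosomal RNA split (0.000215). Its relative Arrdc4, the other well known MondoA target, stood at 0.05 (adjusted p = 0.54, edgeR). Mxd1, a Max-binding repressor on the same list of 22 genes, fell by 0.36, and the list median was -0.07.

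Nox1, the superoxide-producing oxidase of gut epithelium, had the largest fitted rise among the protein-coding genes above 1 CPM. It measured 32.3, 33.97, 32.5 and 27.2 CPM with DMSO and 46.7, 58.9, 53.03, 35.8 and 59.6 CPM with UK14,304, without overlap, a change of 0.62 ± 0.09 (SE, adjusted p = 0.00145, edgeR). Clca3b, a secreted calcium-activated chloride channel regulator, was the most abundant gene that rose, at 1501, 1234.4, 1551 and 1449 CPM and 1717, 1588, 1991, 1683 and 1663 CPM (change 0.28 ± 0.04, SE, adjusted p = 0.00179, edgeR). Cyp2c29, a cytochrome P450 of drug and fatty acid metabolism, rose by 0.39 as the 1 called gene of 32 in xenobiotic metabolism, from 199.98, 148, 239.7 and 188 CPM to 251, 216, 340.1, 223 and 304 CPM. Its adjusted p was 0.00303 by edgeR, and 0.0852 once the GC trend was removed. Pim1, a kinase of survival signalling, measured 13.9, 12.5, 13.9 and 12.8 CPM with DMSO and 17.3, 15.2, 16.9, 15.9 and 17.3 CPM with UK14,304 and rose by 0.31 (adjusted p = 0.0259, edgeR). Fam13b, which encodes a GTPase-activating protein, rose by 0.28 and Gimd1, which encodes a P-loop NTPase domain, by 0.35. Pim1 and Gimd1 each lost the call in 5 of the 9 fits that left out 1 library, and Fam13b in 2. Reg3b, an antibacterial lectin, rose in each pair, from 348, 216, 259 and 233 CPM to 413, 268, 283, 303 and 399 CPM (change 0.27 ± 0.05, SE, adjusted p = 0.00657, edgeR). On the same list of 22 defence genes the lectin Reg4 fell by 0.26 and the cornified envelope gene Sprr1a by 0.68, which was lost with the ribosomal RNA split.

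**Figure D4:**
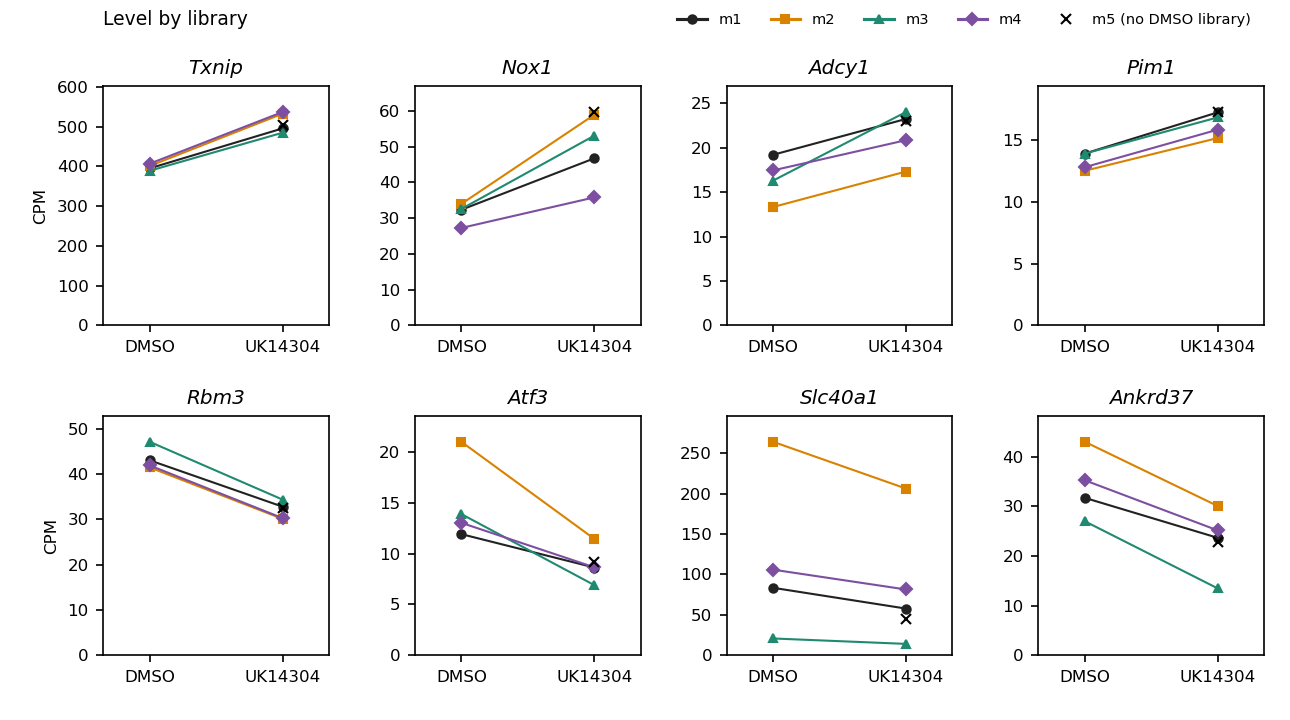
Level of 8 genes (y axes, CPM, from 0) in the DMSO and UK14,304 libraries, with lines joining libraries of the same replicate number and a cross for UK14,304 m5, which has no DMSO partner. Txnip, Nox1, Adcy1 and Pim1 rise and Rbm3, Atf3, Slc40a1 and Ankrd37 fall in each of the 4 pairs, and Slc40a1 shows a spread between numbers wider than the change.

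Rbm3 had the third smallest adjusted p of the comparison. It encodes an RNA-binding protein that cells raise when they are cooled and that protects translation. The libraries measured 43.04, 41.5, 47.1 and 41.9 CPM with DMSO and 32.8, 30.1, 34.4, 30.3 and 32.4 CPM with UK14,304, without overlap. The fitted level fell by 26.2%. The change was -0.44 ± 0.04 (SE, adjusted p = 3.47e-05, edgeR). Cirbp, the other cold-inducible RNA-binding protein, stood at 0.08 with an adjusted p of 0.505 by edgeR. Of 18 circadian clock genes 2 were called lower, both of them PAR-domain output factors rather than core oscillator genes. Tef measured 56.9, 56.95, 56.9 and 54.7 CPM with DMSO and 48.2, 44.2, 42.4, 47.3 and 52.3 CPM with UK14,304 and changed by -0.29 ± 0.05 (SE, adjusted p = 0.00657, edgeR). Dbp measured 6.65, 8.03, 6.98 and 6.66 CPM and 4.8999, 4.66, 3.97, 4.401 and 5.79 CPM and changed by -0.60 ± 0.13 (SE, adjusted p = 0.0192, edgeR). Neither overlapped between groups. The period gene Per1 stood at -0.29 (adjusted p = 0.0572, edgeR), Arntl, which encodes the activator Bmal1, at 0.13 (0.255) and the list median was -0.15. With the ribosomal RNA split Dbp lost its call. Without DMSO m2 the list held 0 calls, and without DMSO m3, UK14,304 m2 or UK14,304 m3 it held 1.

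Among growth regulators, single genes were called. Mycn, the N-Myc gene, fell without overlap from 14.1, 12.1, 12.3 and 13.3 CPM to 10.2, 10.1, 9.09, 10.3 and 8.99 CPM, a change of -0.39 ± 0.06 (SE, adjusted p = 0.0037, edgeR), while Myc itself was not called (adjusted p = 0.964, edgeR). Cdkn1a, which encodes the cell cycle inhibitor p21, fell without overlap from 244, 286, 219.9 and 248 CPM to 215, 219.5, 157, 206 and 199.9 CPM (change -0.32 ± 0.05, SE, adjusted p = 0.00451, edgeR) and was the 1 called gene of 21 p53 targets, whose median was 0.04. Among 52 mitosis genes 1 was called, the kinetochore gene Kntc1, which rose by 0.19 (adjusted p = 0.0413, edgeR). The list median was 0.08, 25 of the 52 rose in 4 of 4 pairs against the 14% of all genes, and 17 had an unadjusted p under 0.05, 16 of them above 0. Kntc1 lost its call with the ribosomal RNA split and in 8 of the 9 fits that left out 1 library, all but the one without UK14,304 m4. The mitosis list held 12 calls, all higher, with the UK14,304 and DMSO samples alone and the block, a fit that called 216 of all genes higher. Without a filter on low counts it held 7, all higher, where 235 of all genes were called higher. Without the replicate number in edgeR it held 0. None of 41 S phase genes passed edgeR's test (7 with an unadjusted p under 0.05, and 0 called by DESeq2 or limma voom), nor did any of 23 Wnt target and stem cell genes (4, and 0 by either). Over all 15247 tested genes 2256 had an unadjusted p under 0.05 by edgeR. With the GC trend removed, 2 S phase genes and 3 Wnt target and stem cell genes were called higher, where 217 of all genes were. With the UK14,304 and DMSO samples alone and the block there were 2 and 2, and without a filter on low counts 1 and 2, all higher. Hist1h1c, a linker histone and the 1 called of 21 histone genes, rose without overlap from 20.6, 22.2, 19.9 and 19.3 CPM to 24.2, 25.5, 25.6, 23.5 and 27.7 CPM (change 0.26 ± 0.06, SE, adjusted p = 0.0325, edgeR), and passed with 3 of the libraries left out in turn, UK14,304 m1, m4 and m5. Replication-dependent histone mRNAs have no poly(A) tail, and only 21 of the 83 listed passed the filter in these poly(A)-selected libraries. Rps12 rose by 0.43 and Rps10 fell by 0.84 at mean levels of 14.6 and 3.45 CPM among 76 ribosomal protein genes. Both have processed pseudogenes, so these values rest on the reads that fit 1 place and are uncertain.

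Genes of innate immunity and barrier function supplied scattered falls. Stat2 and Oasl1, a transducer of interferon signals and an interferon-induced gene, were the called genes of 28 on the interferon and antigen presentation list. Stat2 measured 41.2, 51.03, 35.9 and 41.1 CPM with DMSO and 32.4, 36.4, 26.5, 32.2 and 36.7 CPM with UK14,304 (change -0.39 ± 0.06, SE, adjusted p = 0.00303, edgeR). Oasl1 measured 24.5, 48.2, 15.8 and 26.01 CPM and 19.9, 30.6, 8.63, 16.9 and 17.5 CPM (change -0.59 ± 0.11, SE, adjusted p = 0.00926, edgeR), and lost its call without DMSO m2 or DMSO m3. The tight junction gene Cldn4, 1 of 21 junction genes to pass, fell by 0.49 (adjusted p = 0.0047, edgeR), and its DMSO library m2 stood apart at 69.5 CPM against 41.5 to 42.1 CPM in the others. Apoc3, an apolipoprotein of lipid export, was the 1 called of 32 enterocyte genes and fell by 0.48 (adjusted p = 0.0288, edgeR). It lost its call with the ribosomal RNA split and in 6 of the 9 fits that left out 1 library. The skeletal muscle actin gene Acta1 fell by 0.66 and Ppp1r3b, which targets protein phosphatase 1 to glycogen, by 0.47, both among the smallest adjusted p-values (0.000564 for each, edgeR).

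Paneth cell genes, which serve antibacterial defence at the crypt base, fell as a group, with 11 of 23 called lower, none higher and a median of -0.31. Defa29, an α-defensin, measured 16.1, 8.39, 17.8 and 17.5 CPM with DMSO and 7.97, 3.91, 7.93, 5.96 and 7.48 CPM with UK14,304, without overlap (change -1.21 ± 0.11, SE, adjusted p = 2.54e-05, edgeR). Lyz1, the Paneth cell lysozyme, measured 1623, 1078, 1775 and 1519 CPM and 1357, 954, 1402, 1087 and 1339.6 CPM (change -0.31 ± 0.05, SE, adjusted p = 0.0031, edgeR). Mptx2, a pentraxin of Paneth cells, fell by 0.70, and its DMSO library m2 stood apart at 14.4 CPM against 31.5 to 34.4 CPM in the others. Of the named genes, 9 α-defensin and related genes, among them Gm14851 (-0.60), Gm15292 (-1.23) and the pseudogene Defa-ps6 (-1.03), lie together on chromosome 8, from Defa21 at chr8:21025545-21026516 to Defa26 at chr8:21618183-21618972. AY761184, a further called gene that was picked after its value was seen, lies beyond them at chr8:21702519-21703645 and changed by -0.48. Genes of this family are near copies of each other, so reads could be lost or split unevenly between them and the values of single members are uncertain. With the ribosomal RNA split 10 of the 11 Paneth calls passed, and without the replicate number none did. The goblet cell list gave 2 falls of 20, Agr2 (-0.16) and the shared Paneth and goblet gene Ang4 (-0.27). Neither passed with the ribosomal RNA split. Without DMSO m3, DMSO m4, UK14,304 m2 or UK14,304 m3 the list held 0 calls, and without DMSO m1 or DMSO m2 it held 1. Enteroendocrine and tuft cell lists gave no call among 23 and 12 genes by edgeR, with 1 and 4 genes at an unadjusted p under 0.05 and none by DESeq2 or limma voom.

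In all, 21 lists with 458 tested genes held no call by edgeR. Of these genes 80 had an unadjusted p under 0.05 by edgeR, against 2256 of all 15247 tested genes. DESeq2 called 1 of them and limma voom none. The 21 include the mitochondrial-encoded mRNAs, with 0 tested genes, which could give no call. The adrenergic receptor, fibroblast, neural and endothelial lists among them had only 2, 1, 2 and 3 tested genes. Among 80 nuclear genes of oxidative phosphorylation the median was -0.07 and 26 fell in 4 of 4 pairs against 15.5% of all genes, and Ndufa6, of complex I, came closest at -0.17 (adjusted p = 0.0883, edgeR). RNA splicing factors leaned the other way, with a median of 0.08 and 22 of 39 higher in 4 of 4 pairs, and with the GC trend removed that median was 0.02. Srsf6 and Hnrnph1 had the smallest p-values there, at 0.14 and 0.15 with adjusted p-values of 0.139 and 0.189 by edgeR. Heat shock, Nrf2, fatty acid oxidation, Notch, BMP and chloride transport lists had medians between -0.03 and 0.06. Hmox1, a heme oxygenase induced by Nrf2, stood at -0.32 (adjusted p = 0.0863, edgeR), and Bmp2 at -0.25 (0.131).

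The largest fitted changes belonged to scarce transcripts. Under 1 CPM, 2 genes were called higher and 3 lower, and they are not named. Among the called genes with a mean of at least 1 CPM, the 5 largest rises were noncoding genes or pseudogenes with means between 1.02 and 8.85 CPM, and the 15 largest falls had means between 1.05 and 10.3 CPM. Of 13 named called genes that do not code for protein, 11 overlap the span of another tested gene, and the counting did not use strand. Gm16215, a processed pseudogene at chr3:144847574-144848210 (plus strand), rose by 1.92 ± 0.30 (SE, adjusted p = 0.00303, edgeR), from 5 to 17 counts per DMSO library to 30 to 48 per UK14,304 library. It lies within Clca3b on the opposite strand, which itself rose, so the reads of the pair cannot be told apart by strand. Gm16559, at chr3:138281408-138307022 and antisense to the alcohol dehydrogenase gene Adh1, measured 6.23, 7.26, 4.396 and 5.96 CPM and 9.54, 11.8, 6.57, 13.6 and 14.3 CPM and rose by 0.82. Gm15657, Gm45221 and Gm37113 rose by 0.76, 0.73 and 0.72. They overlap the spans of Muc13 and Heg1, of Picalm and of Rbp2, none of which was called. Among the falls, AC167363.2 (-0.89) overlaps Cdkn1a, which fell too. Gm49502 (-1.06), Gm43759 (-0.94), Gm42979 (-0.75) and Gm26724 (-0.79) overlap Srebf2, Hps4, Sfswap and Lemd2, which were not called. Gm29008 fell by 1.03, and Snord104, a small nucleolar RNA of 70 bases, by 0.79 at a mean of 1.18 CPM. Among the protein-coding genes with large falls, Chrna4, a nicotinic receptor subunit, measured 1.59, 2.76, 0.463 and 1.19 CPM with DMSO and 0.439, 1.29, 0.33, 0.873 and 0.519 CPM with UK14,304, with overlap, and changed by -1.09 ± 0.25 (SE, adjusted p = 0.0325, edgeR). Cdhr1, a photoreceptor cadherin, fell by 0.96 and Selenbp2, a selenium-binding protein, by 0.73.

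UK14,304 and norepinephrine, each against its own vehicle and at the same dose and time, were set side by side for the 186 genes. They do not share control libraries, although all 4 groups carry the same replicate numbers. Norepinephrine gave 16 calls (0.105% of the 15247 genes), 2 higher (0.0131%) and 14 lower (0.0918%), and 15 of these 16 were among the 186 and moved the same way. Of the 186, 182 had a fitted norepinephrine effect of the same sign and 175 a smaller one. The difference between the agonists' effects itself passed for 0 genes by edgeR, with a smallest adjusted p of 0.0563, 405 genes at an unadjusted p under 0.05, 1 gene called by DESeq2 and 0 by limma voom. That nearest gene, also the 1 DESeq2 called, was Rbm3, whose change was -0.44 with UK14,304 and -0.05 with norepinephrine, a difference of -0.39 ± 0.06 (SE). Mycn stood at -0.39 and 0.07, Egr1 at 0.34 and -0.07, Hist1h1c at 0.26 and -0.13 and Atf3 at -0.72 and -0.21. Their unadjusted p-values for the difference were 5.86e-05, 0.000142, 0.000148 and 0.000787, with edgeR's adjusted values above the threshold. Under norepinephrine the medians of the metabolic lists were -0.16 for glycolysis, -0.09 for hypoxia and -0.09 for the ATF4 group, with no member called. Paneth cell genes had a median of -0.37 and 10 calls under norepinephrine, all lower. Defa29 changed by -1.11 there against -1.21, and Lyz1 by -0.37 against -0.31, with differences of -0.10 ± 0.16 and 0.06 ± 0.07 (SE, unadjusted p = 0.519 and 0.416, edgeR). Txnip rose under both agonists, by 0.37 with UK14,304 and 0.18 with norepinephrine (adjusted p = 0.031, edgeR).

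**Figure D5:**
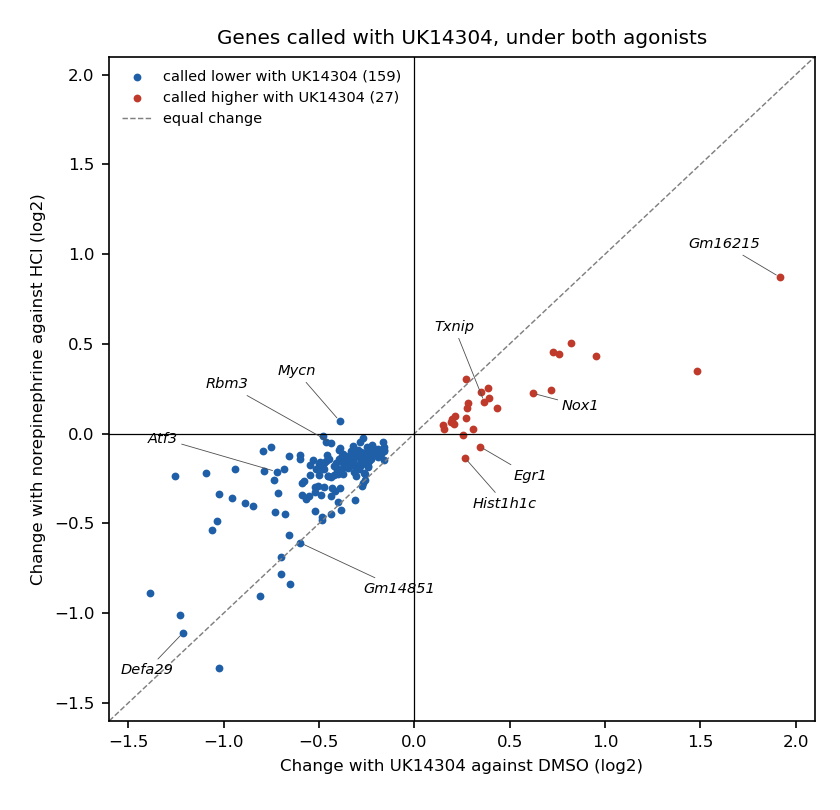
Fitted change with UK14,304 against DMSO (x axis, log2) and with norepinephrine against HCl (y axis, log2) for the 186 genes called with UK14,304, blue where lower and red where higher, with a dashed line of equal change. Of the points, 175 lie closer to 0 on the norepinephrine axis, 182 share the sign, and the genes were chosen by the x axis.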

How the data were processed

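RNA of the organoids was sequenced as 50 bp single reads from poly(A)-selected libraries. The authors aligned the reads to GRCm38 with STAR 2.7.3 and deposited raw counts per gene from featureCounts, whose file header names version 2.0.1 (the processing notes give Subread 1.6.4) and Ensembl release 102. Only reads that fit 1 place were counted, without regard to strand. From the deposited counts of 55487 genes (55141 with a symbol), genes that pass edgeR's filterByExpr were kept, scaled by TMM and tested with edgeR 4.0.16 (R 4.3.3) by the quasi-likelihood test in a model of all 18 samples with 4 groups and the replicate number as a block. P-values were adjusted by Benjamini-Hochberg over all tested genes, with a threshold of 0.05. Samples were grouped by their titles, and every deposited column was used. Fold changes are log2, UK14,304 minus DMSO. CPM are counts scaled to the sample's total of counted reads after TMM adjustment.

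The replicate numbers pair the UK14,304 and DMSO samples by the data. The deviations of same-numbered UK14,304 and DMSO samples from their group means correlated at 0.155 to 0.520 over 4 pairs, against a mean of -0.0864 and a highest value of 0.0807 over the other 16 pairings. The block is shared by all 4 groups, and not every number paired across them. Between UK14,304 and norepinephrine the values were 0.107, 0.388 and 0.436 for m1 to m3, -0.212 for m4 and 0.0407 for m5.

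Among called genes with a symbol and a mean of at least 1 CPM, the 15 largest rises, the 15 largest falls, the 10 smallest adjusted p-values and every called list member could be named, with the 2 smallest p-values of each list without a call. Uncalled members of the other lists, the neighbours of noncoding genes and the genes of the closing observations were picked after their values were seen. The comparison and the gene lists were chosen with earlier results of these data known. Alternatives were other size factors, filters, thresholds and samples, removal of GC and length trends, a split of libraries at a ribosomal RNA share of 1%, DESeq2 1.42.0, limma voom 3.58.1 and each sample left out in turn. The tests were checked on simulated counts. Upstream sequences come from RefSeq, GRCm38.p6. The 9 samples hold between 22896526 and 27850373 counted reads, so that values near 1 CPM rest on few reads, and reads without molecular identifiers are not independent molecules. Some genes are not reported here.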

Additional observations from a re-analysis of the deposited data

Results flagged for a closer look

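Over 274 groups of values, 14 samples stood apart from the others of their group by Dixon's test, which flags about 1 group in 20 by chance. In the DMSO group, library m2 was high for Egr1 at 23.8 CPM (16.7 to 17.6 CPM in the others), for Slc7a11 at 27.6 CPM (17.2 to 18.6 CPM) and for Cldn4 at 69.5 CPM (41.5 to 42.1 CPM), and low for Tert at 17.8 CPM (20.8 to 21.2 CPM) and for Mptx2 at 14.4 CPM (31.5 to 34.4 CPM). DMSO m3 was high for Chordc1 at 69.8 CPM (59.1 to 60.5 CPM), for Itgam at 3.86 CPM (2.43 to 2.67 CPM) and for Creb3l1 at 51.8 CPM (43.1 to 44.4 CPM). DMSO m4 was low for Tef at 54.7 CPM, where the others lay at 56.9 to 57.0 CPM. In the UK14,304 group, library m3 was high for Creb3l1 at 45.1 CPM (37.2 to 39.2 CPM), as in the DMSO library of its number, and low for the glycolytic gene Gpi1 at 853 CPM (1150.4 to 1260.0 CPM) and the hypoxia gene Higd1a at 16.5 CPM (20.4 to 21.6 CPM). UK14,304 m1 was high for Snord104 at 1.13 CPM (0.759 to 0.864 CPM) and m4 low for the noncoding Gm26724 at 0.910 CPM (1.16 to 1.24 CPM). The chance rate of 1 in 20 gives about as many flags as were found, and what sets these samples apart was not tested.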

How the results depend on the processing

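None of the 186 called genes changed sign in any alternative. The count of calls moved most with the treatment of the replicate number. Without the replicate block 4 genes were higher and 2 lower, with the UK14,304 and DMSO samples alone 216 and 309 with the block and 1 and 0 without it, and with the number as a random effect in limma voom 5 and 15. Without a filter on low counts the counts were 235 and 392, with the GC trend removed 217 and 409, and with the ribosomal RNA split 12 and 66. The lower genes thus made up 85.5% of calls in the main model, 58.9% with the 9 samples alone, 62.5% without a filter and 65.3% with the GC trend removed. DESeq2 called 53 higher and 219 lower genes. An adjusted p under 0.01 left 11 and 80, and an absolute log2 change of at least 0.5 left 8 and 45, fewer by construction. Leaving out 1 sample at a time gave 11 to 30 higher and 57 to 168 lower genes. The difference between the agonists' effects, passed by 0 genes in the main model, gave 24 without a filter on low counts. The smallest adjusted p-values of these (edgeR) belonged to the ribosomal RNA gene CT010467.1 (difference -1.98), Mir6236, Lars2, Gm15564 and Gm23935. The share of CT010467.1 was lower with UK14,304 in 4 of 4 pairs. The difference gave 1 gene (Rbm3) with at least 10 counts in every sample, with DESeq2 and with the length trend removed, and 0 to 1 with a sample left out. Of the named called genes 59 lost the call in at least 1 of the 9 fits without a sample and 24 in 5 or more, among them Slc11a2, Car9, Sqle, Egln1, Kntc1 and Gm37113 in 8, and Adm, Agr2, Selenbp2, Snord104 and Gm43759 in 7. The causes were not tested. The smallest called change was 0.15 on the log2 scale, and 0.95 among genes under 1 CPM.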

Other observations

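The genes given here were called outside the rule for naming and were chosen after their values were seen, from no list, so that they say nothing about a pathway as a whole. Plaur, the urokinase receptor gene, changed by -0.49 ± 0.10 and Plat, the tissue plasminogen activator gene, by -0.48 ± 0.10 (SE, adjusted p = 0.0205 and 0.0238, edgeR). The matrix genes Lamb1 and Thbs1 fell by 0.52 and 0.43. All of these were lower in 4 of 4 pairs.

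Gys1, which builds glycogen, changed by -0.24 and Pgm1, which interconverts glucose phosphates, by -0.20. Bsg, a partner that carries lactate transporters to the membrane, fell by 0.25, Ak4, a mitochondrial adenylate kinase, by 0.39 and Fam162a by 0.30. The amino acid carriers Slc1a4 and Slc38a1 fell by 0.28 and 0.21. The retinoic acid receptor gene Rarg fell by 0.50 and Cyp26b1, which breaks down retinoic acid, by 0.55. Areg, a ligand of the EGF receptor, fell by 0.35. Among the rises, Klf10, a TGF-β-inducible factor, had a change of 0.21 and Zfp36l2, which destabilises mRNAs, of 0.16. Each of these genes moved the same way in 4 of 4 pairs and passed edgeR's test with the replicate block.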
